A study of Mus musculus with 6 samples.

Results

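The neuronal marker genes examined here were Tubb3, Dcx, Map2, Snap25, Syt1, Stmn2, Gap43, Syp, Nefl and Rbfox3, which are 10 of the 55357 genes in the expression table and were taken by their symbols. They were measured by RNA-seq in cultured mouse cortical astrocytes, in 3 cultures transfected with a plasmid that expresses FLAG-tagged BRAF K499E from the CMV promoter (KE) and in 3 cultures that were not transfected (NT). The astrocytes came from the cortices of C57BL/6 embryos, were shaken after plating and replated in a medium with HB-EGF, and RNA was collected 48 hours after transfection. Cultures given an empty plasmid or BRAF WT are not analysed here, so the effects of plasmid transfection and of BRAF KE cannot be told apart. The labels do not say whether the 3 replicates of a group came from separate preparations, so p-values measure only the spread between these cultures, which may be technical. In bulk RNA, fewer cells of a type and less RNA per cell cannot be told apart either.

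Neurons are recognised by proteins of a few kinds. TUBB3 is a tubulin of neuronal microtubules, DCX and MAP2 bind microtubules in migrating neurons and in dendrites, and NEFL is the light subunit of neurofilaments, which fill mature axons. GAP43 and STMN2 act in growing axons, SNAP25, SYT1 and SYP serve synaptic vesicles and their release, and RBFOX3, known as NeuN, is an RNA-binding protein of postmitotic neurons. Several of these transcripts are also made at some level by glia and their progenitors, Map2 and Gap43 among them, whereas NeuN is used as a marker of mature neurons.

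The normalized counts of the table, which are gene counts scaled by DESeq2, summed to between 30472429 and 30895529 per culture. The depth, estimated from the most frequent low value as the worth of 1 read, was approximately 24500000 reads in KE replicate 2 and 29500000 to 34100000 in the other cultures. Braf, the transfected gene, was 34933 to 40978 in KE and 811 to 946 in NT, which accords with the labels. All 12 listed astrocyte markers passed the filter on low genes, and their summed normalized count was 202899 to 209238 in KE and 147709 to 156817 in NT. The cultures therefore carried the astrocyte markers of their label, although S100b, also among them, lay between 11.8 and 31.5 only.

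Of the 10 neuronal markers, 9 had a mean of at least 10 normalized counts over the 6 cultures and were tested, and Rbfox3 did not pass this filter. In limma with Benjamini-Hochberg adjustment over 15280 genes, 2 of the 9 rose in KE, Nefl and Tubb3, and 3 fell, Map2, Gap43 and Stmn2. The remaining 4, Snap25, Syt1, Syp and Dcx, were not called. Among all tested genes, 51.3% were called, 25.3% higher and 26.0% lower, so the shares for the markers, 2 and 3 of 9, lay near the background. The median log2FC of the 9 was -0.11, against 0.0018 over all tested genes.

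**Figure D1:**
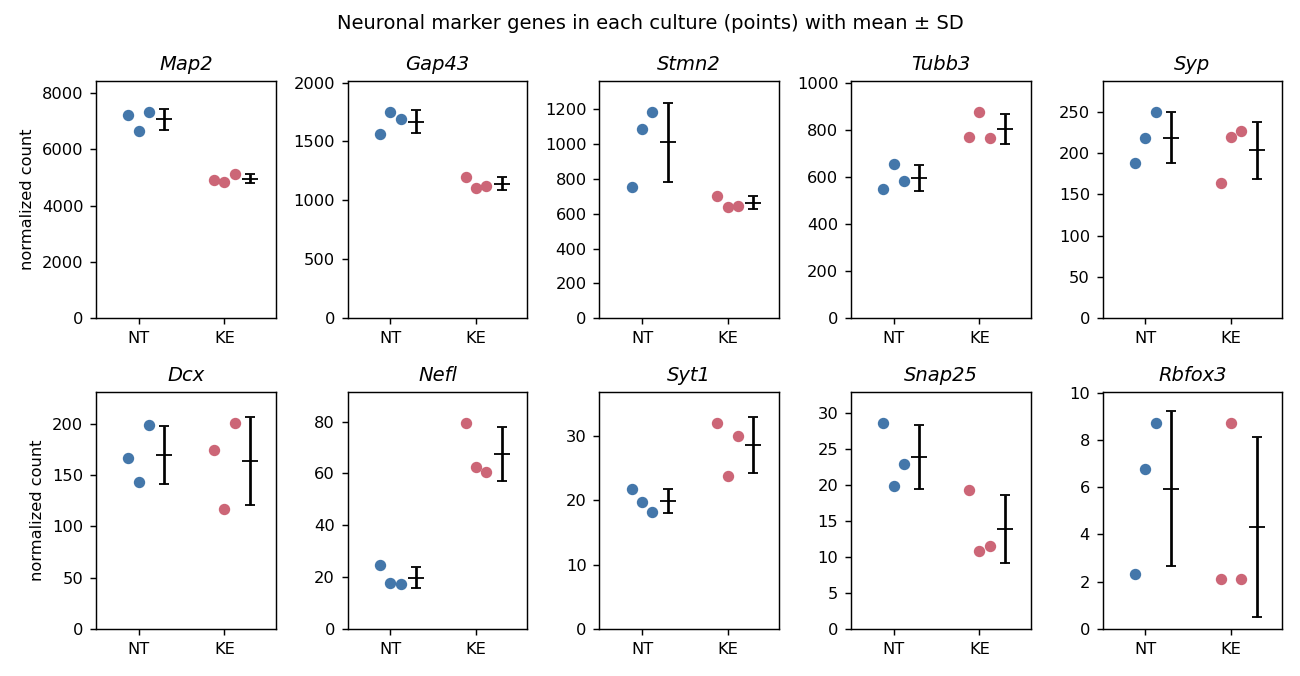
Normalized count (vertical axes, each from 0) of the 10 neuronal markers in the 3 NT and the 3 KE cultures, with each point a culture and the bar the mean ± SD. The KE and NT points do not overlap for Map2, Gap43, Stmn2, Tubb3, Nefl, Syt1 and Snap25, and overlap for Syp, Dcx and Rbfox3.

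The 250 bases of genomic sequence before the annotated start of the canonical transcript, which can lie inside the gene, are shown for the 5 markers that passed the test, the 2 that rose first, since the calls of the comparison rest on these genes. The sequences are from GRCm39 and run 5′ to 3′ on the strand of the gene, at chr14:68321018-68321267 (plus strand), chr8:124137913-124138162 (plus), chr1:66360580-66360829 (plus), chr3:8574105-8574354 (plus) and chr16:42161087-42161336 (minus). Capitals mark a match to any of the 6 motifs searched.
Nefl: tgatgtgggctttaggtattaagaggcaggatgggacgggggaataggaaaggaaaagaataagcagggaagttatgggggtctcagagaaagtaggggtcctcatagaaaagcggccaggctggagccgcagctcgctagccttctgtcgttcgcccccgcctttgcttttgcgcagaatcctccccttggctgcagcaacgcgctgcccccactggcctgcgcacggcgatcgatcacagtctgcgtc
Tubb3: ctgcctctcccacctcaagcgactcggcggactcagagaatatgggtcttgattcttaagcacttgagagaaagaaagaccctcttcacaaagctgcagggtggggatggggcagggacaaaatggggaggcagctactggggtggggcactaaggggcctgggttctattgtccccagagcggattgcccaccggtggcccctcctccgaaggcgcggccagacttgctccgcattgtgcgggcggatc
Map2: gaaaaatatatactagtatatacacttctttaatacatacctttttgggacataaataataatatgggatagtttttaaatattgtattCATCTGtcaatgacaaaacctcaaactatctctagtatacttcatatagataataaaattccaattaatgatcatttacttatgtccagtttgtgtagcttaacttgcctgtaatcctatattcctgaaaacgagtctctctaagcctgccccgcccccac
Stmn2: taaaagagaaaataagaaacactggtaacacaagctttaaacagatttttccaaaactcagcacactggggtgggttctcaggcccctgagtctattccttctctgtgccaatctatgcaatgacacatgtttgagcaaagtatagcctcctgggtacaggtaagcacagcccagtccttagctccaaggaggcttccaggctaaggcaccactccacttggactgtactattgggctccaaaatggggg
Gap43: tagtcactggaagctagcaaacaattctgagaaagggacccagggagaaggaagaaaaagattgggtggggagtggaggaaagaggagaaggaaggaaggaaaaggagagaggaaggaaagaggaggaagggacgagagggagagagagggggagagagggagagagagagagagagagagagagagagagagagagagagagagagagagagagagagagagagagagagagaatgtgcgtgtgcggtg
The motifs, searched on both strands, were the left part (CAGCACC) and the right part (GGACAG) of the RE1 element bound by the repressor REST, the E-boxes CAGCTG and CAGATG bound by proneural factors, the AP-1 site TGANTCA and the ETS site CCGGAAG. No motif overlaps another in these windows. Map2 holds CAGATG on the minus strand, in capitals above, and the other 4 sequences hold none of the 6. Over the windows of all 10 markers, CAGATG was found in 2 (Map2 and Syp) and GGACAG in 1 (Syt1), whereas 13.0% and 19.3% of the 21770 windows of protein-coding genes hold them. The other motifs were found in none of the 10, and in 5.32% (CAGCACC), 11.9% (CAGCTG), 6.17% (TGANTCA) and 6.89% (CCGGAAG) of all windows. The windows before Nefl and Tubb3 had a GC content of 58.0% and 60.4%, and those before Map2, Stmn2 and Gap43 one of 31.2%, 47.2% and 52.0%.

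Nefl (ENSMUSG00000022055, plus strand of chromosome 14, 68321268 to 68326544) showed the largest change of the 9 tested markers. Its normalized counts were 79.6, 62.5 and 60.7 in KE and 24.7, 17.6 and 17.2 in NT. Every KE culture was thus above every NT culture, and the lowest KE value exceeded the highest NT value by more than the range within either group. The mean rose from 19.8 ± 4.25 (SD, n = 3) in NT to 67.6 ± 10.4 (SD, n = 3) in KE, and the log2FC was 1.73 with an SE of 0.25 (limma, adjusted p = 1.6e-04). On the log2 scale with 1 added, which understates the change of low genes, this is 3.31-fold. The NT values correspond to only about 17 to 25 reads per culture. Nefl shares exon sequence with Nefm on the opposite strand in the annotation. The library kit keeps strand, but the strand setting of the counting is not given in the sources used here.

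Tubb3 (ENSMUSG00000062380, plus strand of chromosome 8, 124138163 to 124150092) was 772, 878 and 767 in KE and 552, 658 and 584 in NT. The 3 KE cultures were all higher, and the mean rose from 598 ± 54.5 (SD, n = 3) to 806 ± 62.8 (SD, n = 3). The log2FC was 0.43 with an SE of 0.09 (limma, adjusted p = 0.0025), or 1.35-fold. Tubulin genes are similar in sequence, so that reads may be divided among them with some error.

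Map2 (ENSMUSG00000015222, plus strand of chromosome 1, 66214327 to 66481746) had the highest normalized count of the 10 markers. It was 4906, 4851 and 5137 in KE and 7243, 6653 and 7334 in NT. The groups were well apart, with means of 4965 ± 152 (SD, n = 3) and 7077 ± 370 (SD, n = 3), and the log2FC was -0.51 with an SE of 0.06 (limma, adjusted p = 2.9e-05). Map2 alone made up 61.6% of the summed normalized counts of the 10 markers in KE and 65.5% in NT, so that this sum, 7918 to 8201 in KE and 10547 to 11312 in NT, mostly follows Map2.

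Gap43 (ENSMUSG00000047261, minus strand of chromosome 16, 42068805 to 42161086) encodes a membrane-bound protein of the growth cone. Its normalized counts were 1202, 1104 and 1121 in KE and 1564, 1750 and 1692 in NT. All KE cultures lay below all NT cultures, with a log2FC of -0.55 with an SE of 0.07 (limma, adjusted p = 6.9e-05).

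Stmn2 (ENSMUSG00000027500, plus strand of chromosome 3, 8574151 to 8626667) encodes a protein that destabilises microtubules in growing axons. It was 705, 641 and 643 in KE and 755, 1090 and 1185 in NT. The groups did not overlap, but NT replicate 1 was close to the KE cultures and the NT group was more widely spread, with means of 663 ± 36.5 (SD, n = 3) and 1010 ± 226 (SD, n = 3). The log2FC was -0.58 with an SE of 0.14 (limma, adjusted p = 0.0053), and without NT replicate 1 it was -0.78. The size of the fall in Stmn2 was thus less certain than that of Map2 or Gap43.

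Of the vesicle genes, Snap25 (ENSMUSG00000027273), which encodes a SNARE protein of the presynaptic membrane, was 19.4, 10.8 and 11.5 in KE and 28.7, 19.9 and 23.0 in NT. The highest KE value lay just under the lowest NT value. The log2FC of -0.77 did not pass the test (95% confidence interval -1.51 to -0.03 before adjustment, limma, adjusted p = 0.077). It passed without KE replicate 1, where it was -1.02 with an adjusted p of 0.039, and when the variance trend was left out of limma.
Syt1 (ENSMUSG00000035864), the calcium sensor of vesicle release, was 32.1, 23.8 and 30.0 in KE and 21.8, 19.7 and 18.2 in NT. Its values were all higher in KE, but the log2FC of 0.50 was not called (95% confidence interval -0.10 to 1.09, limma, adjusted p = 0.15), except without the variance trend, where the adjusted p was 0.024. Both genes rested on few reads, about 8.6 to 29 per culture for Snap25 and 19 to 35 for Syt1. The opposite signs of these low genes are therefore given as values only.

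Syp (ENSMUSG00000031144), a membrane protein of synaptic vesicles, was 164, 220 and 227 in KE and 188, 219 and 250 in NT. The groups overlapped, and the log2FC was -0.11 (95% confidence interval -0.46 to 0.24, limma, adjusted p = 0.58). Dcx (ENSMUSG00000031285), which marks migrating and newborn neurons, was 174, 117 and 201 in KE and 167, 143 and 199 in NT. Here too the groups overlapped, with a log2FC of -0.07 (95% confidence interval -0.52 to 0.37, limma, adjusted p = 0.78). Neither interval reaches the log2FC of 0.43 measured for Tubb3, and both include falls of that size.

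Rbfox3 (ENSMUSG00000025576) was the lowest of the 10 markers, at 2.13, 8.73 and 2.12 in KE and 2.31, 6.77 and 8.71 in NT. These values stand for about 2.3 to 9.1 reads per culture, and both groups span nearly the same range. With no filter on low genes its log2FC was -0.47 with an adjusted p of 0.61 from limma, so no difference was detectable at this depth.

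In 7 of the 9 tested markers KE and NT were free of overlap, as were 59.9% of all tested genes. For any 1 of these genes, exact permutation of the 6 cultures has 0.1 as its smallest two-sided p, so that the calls rest on limma's pooling of the variance over genes.

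**Figure D2:**
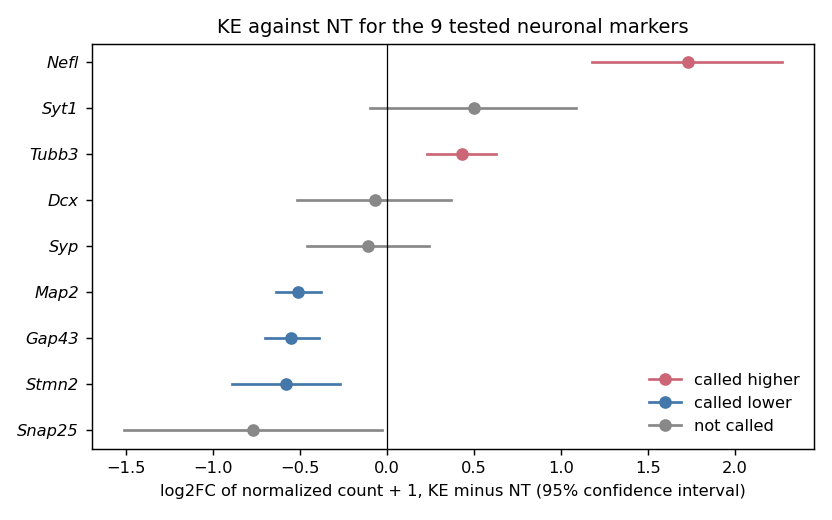
The log2FC of KE against NT (horizontal axis, log2 of the normalized count plus 1) for the 9 tested neuronal markers, with 95% confidence intervals from limma before adjustment. Nefl (1.73) and Tubb3 (0.43) lie above 0 and Map2, Gap43 and Stmn2 below it, while the intervals of Syt1, Dcx and Syp cross 0 and that of Snap25 ends at -0.03.

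To compare levels between genes, each normalized count was divided by the exonic length of the gene in kilobases. In NT the order was Gap43 (880 ± 50.1 per kb, SD, n = 3), Map2 (340 ± 17.8), Tubb3 (186 ± 17.0), Stmn2 (175 ± 39.0), Syp (36.2 ± 5.18), Dcx (13.4 ± 2.21), Nefl (5.79 ± 1.24), Snap25 (2.38 ± 0.446), Syt1 (1.54 ± 0.143) and Rbfox3 (0.414 ± 0.229). Tubb3 and Stmn2 did not differ beyond their spread, whereas the other neighbours were separated by more than their SDs. In KE, Gap43 remained first at 602 ± 27.6 per kb, and Tubb3 (251 ± 19.6) and Map2 (239 ± 7.30) did not differ beyond their spread. Nefl, at 19.7 ± 3.04 per kb, lay above Dcx at 13.0 ± 3.39 in KE, but below it in NT. In both groups Gap43, Map2, Tubb3 and Stmn2 were thus far above Snap25, Syt1 and Rbfox3, while Syp, of synaptic vesicles, lay above Dcx.

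Against all tested genes, the level per kb averaged over the 6 cultures placed Gap43 at percentile 90.4, Map2 at 74.6, Tubb3 at 67.7 and Stmn2 at 56.4. Syp, Dcx and Nefl stood at percentiles 26.8, 15.1 and 14.8, and Snap25 and Syt1 at 1.02 and 1.01. The exonic length counts every annotated exon, which lowers genes with many transcripts. With the length of the canonical transcript instead, Stmn2 (472 per kb in NT) came before Tubb3 (187), and Snap25 (10.4) before Nefl (5.79). In KE, with that length, Map2 (512 per kb) and Stmn2 (310) came before Tubb3 (251), and Nefl (19.7) lay close to Dcx (18.1).

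**Figure D3:**
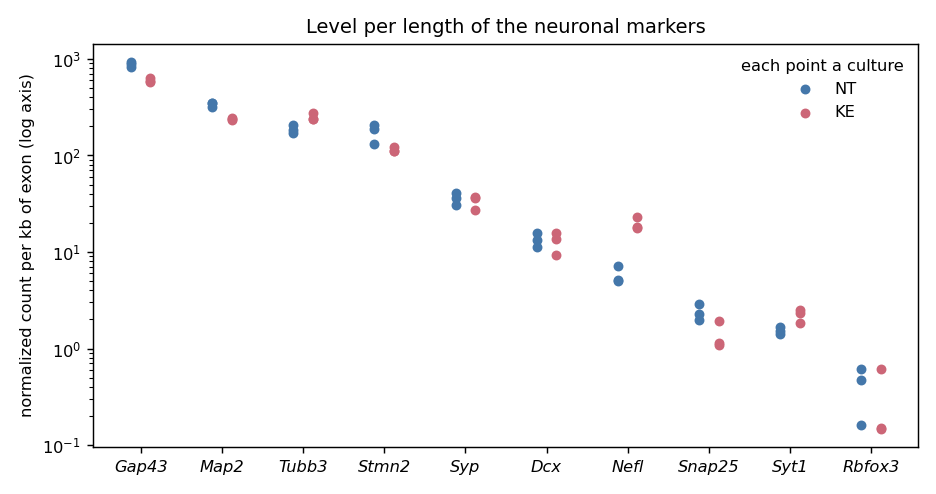
Normalized count per kilobase of exon (vertical log axis) of the 10 neuronal markers in order of their NT level, with each point a culture, NT in blue and KE in red. Gap43 is first and Rbfox3 last, and Nefl changes places with Dcx between NT and KE.

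The neurofilament neighbours of Nefl were examined next, chosen after their values were seen. Nefm, the medium subunit, was 128, 176 and 182 in KE and 74.2, 98.4 and 68.6 in NT. It was higher in every KE culture, with a log2FC of 1.00 with an SE of 0.19 (limma, adjusted p = 0.0012). Nefm and Nefl share exon sequence on opposite strands, and the strand setting of the counting is not given. Their rises may therefore not be independent, which was not tested. Nefh, the heavy subunit, lay between 0 and 2.72 in the 6 cultures and was not tested. Ina, the alpha-internexin filament that joins neurofilaments in the brain, was instead lower, at 22.6, 26.3 and 32.6 in KE and 49.5, 50.7 and 50.5 in NT (log2FC -0.88, limma, adjusted p = 0.0083).

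In 18 other genes of the neuronal cytoskeleton and axon, 16 of which were tested, 5 rose, 5 fell and 6 were not called, with a median log2FC of -0.06. By mean expression, the leading rises were those of Map1b (0.44), a microtubule-associated protein, and Kif1a (0.33), a motor for vesicle precursors. The leading falls were those of the surface glycoprotein Thy1 (-0.79) and the collapsin response mediator Crmp1 (-0.58). Over all tested genes, 25.3% were called higher and 26.0% lower. Changes in both directions are therefore not a trait of this list or of the markers.

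Among 17 genes of synaptic vesicles and release, 15 were tested, of which 6 rose, 3 fell and 6 were not called, with a median log2FC of 0.17. Vamp2 (0.43), the vesicle partner of SNAP25, rose, and Cplx2 (-0.25) and Pclo (-0.52), of the release machinery and the active zone, fell. Syt4, a relative of Syt1 chosen after its values were seen, was 419, 336 and 436 in KE and 106, 95.3 and 61.0 in NT. No KE value came near an NT value, and the log2FC was 2.20 with an SE of 0.20 (limma, adjusted p = 4.7e-06).

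For neuronal RNA-binding proteins and transcription factors, 11 of 16 genes were tested, of which 1 rose and 6 fell, with a median log2FC of -0.26. The gene that rose was Celf4 (log2FC 1.22), a splicing and mRNA regulator, from 159 ± 4.72 (SD, n = 3) in NT to 373 ± 37.7 (SD, n = 3) in KE. The splicing factors Nova1 (-0.62) and Nova2 (-0.36) fell. The Nova1 log2FC ranged from -0.82 to -0.40 with 1 culture left out at a time, being nearest 0 without KE replicate 2, and its call was lost without NT replicate 1 and without the variance trend (limma, adjusted p of 0.063 and 0.070). Without NT replicate 1, 3 genes of this list were lower in place of 6. Neurod2 and Neurod6, transcription factors of cortical excitatory neurons, are listed at 0 in all 6 cultures.

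Genes of neuronal progenitors and newborn neurons gave 1 rise and 6 falls among the 9 tested of 12, with a median log2FC of -0.48. Sox11 (-0.83), a transcription factor of newborn neurons, and Cd24a (-0.29), a surface protein of immature cells, fell, and Sox4 (0.27), a relative of Sox11, rose. Insm1, a factor of dividing neuronal progenitors chosen after its values were seen, fell from 486 ± 15.8 (SD, n = 3) in NT to 229 ± 25.7 (SD, n = 3) in KE (log2FC -1.08). Dcx, the marker of migrating and newborn neurons, did not pass the test.

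Genes of glutamatergic and GABAergic neurons were mostly low. Of 12, 7 were tested, 0 were called higher by limma and 3 lower, and Gad1, which makes GABA, came nearest to a rise with a log2FC of 0.50 and an adjusted p of 0.076. Calb2, the calcium-binding protein calretinin, was 17.2, 16.3 and 15.4 in KE and 154, 174 and 49.7 in NT, a log2FC of -2.69 with an SE of 0.40 (limma, adjusted p = 2.1e-04). Camk2a (-0.82), a kinase of excitatory synapses, was also lower. At an unadjusted p under 0.05, 2 were higher. Slc17a6, a vesicular glutamate transporter, and Sst are listed at 0 in every culture. Over these 5 lists together, 58 of 75 genes were tested, of which 13 rose (22.4%) and 23 fell (39.7%), with a median log2FC of -0.19. The shares over all tested genes were 25.3% higher and 26.0% lower. Of the 75, 14 stayed under 10 normalized counts in all 6 cultures.

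**Figure D4:**
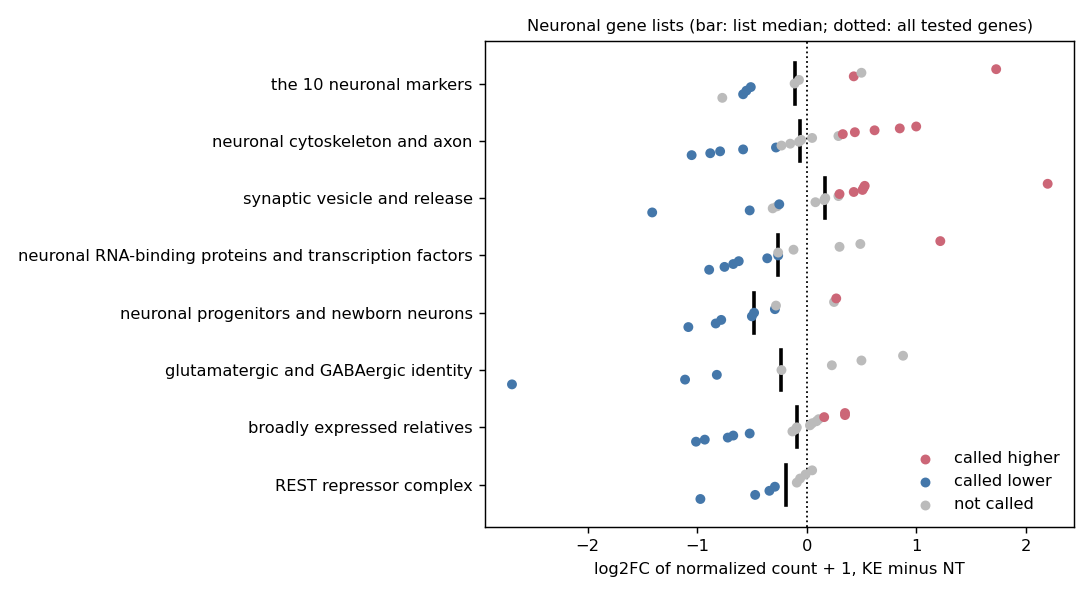
The log2FC of KE against NT (horizontal axis) for the tested genes of the 10 neuronal markers and of 7 further lists, with each point a gene, coloured by its call. The black bar is the list's median, from -0.48 for neuronal progenitors and newborn neurons to 0.17 for synaptic vesicle and release, and the dotted line is the median of all tested genes.

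Relatives of the markers that most cells express were set beside them, 15 genes of which 3 rose and 5 fell. Among all tested genes, 25.3% were called higher and 26.0% lower. Next to Tubb3, the tubulin Tubb5 fell from 45952 ± 2050 (SD, n = 3) in NT to 28915 ± 1664 (SD, n = 3) in KE, a log2FC of -0.67, so that Tubb3 and Tubb5 changed in opposite directions. Next to Map2, Map4 rose with a log2FC of 0.35. Next to Gap43, Marcks (-0.72), a membrane-bound protein of the same kind, fell as Gap43 did, and next to Nefl, the filament gene Vim rose (0.35). Named after their values were seen, Stmn1 and Basp1, the relatives of Stmn2 and Gap43, were lower as well, with log2FC of -0.93 and -1.01. Snap23 (0.05), Sypl1 (0.09), Rbfox2 (0.11) and Dclk1 (0.03), the relatives of Snap25, Syp, Rbfox3 and Dcx, were not called. Syt11 (0.16), a relative of Syt1, was called higher (limma, adjusted p = 0.034), whereas Syt1 was not called. Among further tubulins, Tubb6 (-0.52) fell, and Tubb2a (-0.09) and Tubb4b (-0.1) were not called. Syt11 and these tubulins were also named after their values were seen.

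REST is a repressor that keeps neuronal genes silent in other cells, and its own transcript had means of 1522 ± 54.8 (SD, n = 3) for NT and 1573 ± 97.4 (SD, n = 3) for KE, with a log2FC of 0.05 that was not called (limma, adjusted p = 0.59). Of 8 genes of REST and its partners, 4 were lower and 0 higher in limma, also with 0 higher at an unadjusted p under 0.05. The shares over all tested genes were 26.0% lower and 25.3% higher. The histone deacetylase Hdac2 (-0.47) and the corepressor Sin3a (-0.29) were the most highly expressed of the 4. Rcor2 (-0.97) and Rcor1 (-0.34), named after their values were seen, were the rest.

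The summed markers of other cells differed between the groups in each list below except the vascular and mesenchymal one, whose ranges overlapped. Shares over all tested genes, to be read beside the counts below, were 25.3% called higher and 26.0% called lower. All 12 microglia markers were lower in KE, with a median log2FC of -3.28 and a summed normalized count of 4761 to 6655 in KE and 39056 to 45178 in NT, and none of them was at 0. Radial glia and proliferation markers were lower for 6 of 9 and higher for 1, Sox2 (log2FC 0.32), and the proliferation gene Top2a had a log2FC of -1.11. Their sum was 122423 to 128863 in KE and 190289 to 197576 in NT, most of it from Fabp7, with means of 74197 ± 4298 (SD, n = 3) and 112865 ± 4529 (SD, n = 3). Of 12 oligodendrocyte lineage markers, 11 were tested, 9 fell and 1 rose, with a sum of 29841 to 34925 in KE and 38296 to 38517 in NT, and Mog, of mature myelin, lay near 0. With 1 culture left out at a time, 5 to 8 of them were lower, 5 of them without KE replicate 3. Of 12 vascular and mesenchymal markers, 9 were tested, 3 rose and 3 fell, with a sum of 2526 to 2665 in KE and 2343 to 2943 in NT, and Cldn5, of endothelium, lay near 0. With 1 culture left out at a time, 1 to 2 of these were higher (1 without KE replicate 3) and 1 to 3 lower (1 without NT replicate 2), and without the variance trend 1 was higher. The astrocyte markers rose for 8 of 12 and fell for 2, with a median log2FC of 0.40, and 1 fell in place of 2 without the variance trend or without KE replicate 1, KE replicate 3, NT replicate 2 or NT replicate 3. The part of these markers' cells in the values of Map2, Gap43, Stmn2, Nefl and Tubb3 was not tested.

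**Figure D5:**
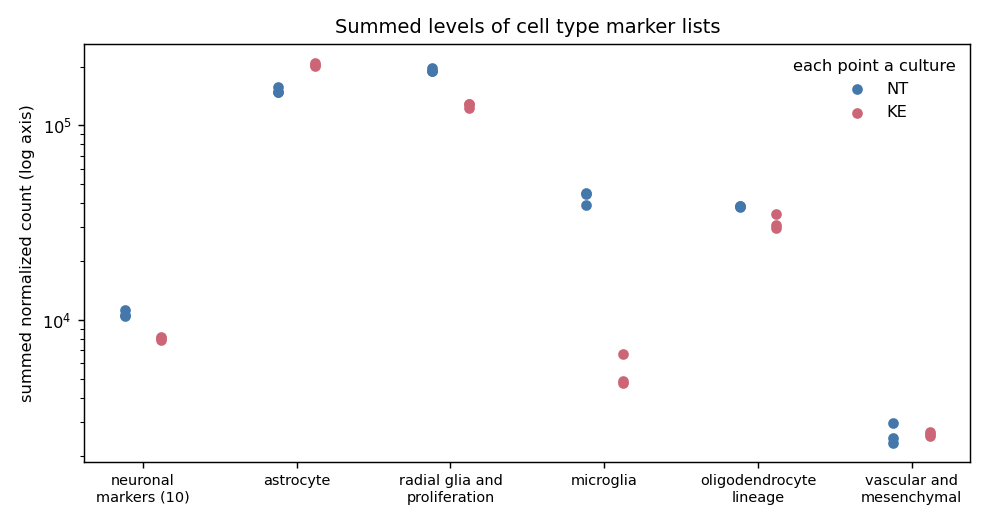
Summed normalized count (vertical log axis) of the 10 neuronal markers and of 5 lists of cell type markers, with each point a culture, NT in blue and KE in red. The neuronal sum is 7918 to 8201 in KE and 10547 to 11312 in NT, and the microglia sum shows the widest gap, 4761 to 6655 against 39056 to 45178.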

How the data were processed

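RNA-seq of 6 cultures (3 KE, 3 NT) was used, with groups and replicate numbers from the labels. The authors deposited a normalized signal for 55357 genes, described as gene counts normalized with DESeq2. According to the study's methods, TrimGalore trimmed the reads, which were aligned to GRCm39 by STAR using Gencode models and quantified with Salmon. The labels name a human build instead, which the mouse gene identifiers do not bear out. The methods speak of adjusting batches without naming them, so no batch was modelled. Normalization evens out the totals and removes the depth. Whole reads were not recovered, since only 79.6% to 82.6% of values below 6 lay within 0.1 of a whole multiple of the most frequent low value. The approximate depth was 24500000 to 34100000 reads, and the spread between cultures served as the measure of precision.

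The values log2(normalized count + 1) of the 15280 genes whose mean reached 10 were fitted by limma 3.58.1 (R 4.3.3) on group alone, with a variance trend. P-values are two-sided and adjusted by Benjamini-Hochberg over all 15280, and called genes have an adjusted p under 0.05. The study's DESeq2 test was not run because the values are not counts. The fit was tested on simulated data in which 200 of 15280 genes changed. Since 51.3% of genes were called in these cultures, that setting differs from the data and does not bear on these calls. Coordinates, exonic lengths and start sites are from Gencode vM39 on GRCm39, in which 54749 identifiers were found. Sypl1 was matched by its identifier.

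The markers and gene lists were chosen with earlier results of these data known. Named are the 10 markers, Braf, and in each list up to 2 higher and 2 lower called genes of highest mean (without calls, the 2 of highest mean), as well as the 5 genes most like the markers' mean pattern. Genes named outside this rule, S100b, Gad1, Nefh, Rest and the listed genes at or near 0 included, were chosen after their values were seen. A gene that the rule would name is not reported here. Alternatives were pseudocounts of 0.5 and 5, no filter or a mean of at least 50, scaling to the 75th percentile, quantile normalization, no variance trend, the replicate block, and each culture left out in turn.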

Additional observations from a re-analysis of the deposited data

How the results depend on the processing

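Nefl, Tubb3, Map2, Gap43 and Stmn2 kept their direction and their call under every alternative in which they were tested, 14 for each but Nefl, which a mean of at least 50 leaves out (13). Their log2FC ranged from 1.55 to 1.89, 0.37 to 0.50, -0.55 to -0.48, -0.59 to -0.51 and -0.78 to -0.45. With a mean of at least 50, 1 marker was therefore called higher. Without the variance trend Snap25 (-0.77) and Syt1 (0.50) were called, with adjusted p of 0.045 and 0.024, and over their alternatives the adjusted p ran from 0.039 to 0.21 and from 0.024 to 0.32. The signs of Dcx and Syp, called under none, turned with quantile normalization (0.06 and 0.01), that of Dcx without KE replicate 2 (0.15) or NT replicate 3 (0.05), and that of Syp without KE replicate 1 (0.04). The causes were not tested. No filter gave 2 progenitor and newborn neuron genes called higher in place of 1, and quantile normalization or no variance trend gave 1 glutamatergic and GABAergic gene called higher in place of 0.

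With 1 culture left out at a time, there were 3308 to 3540 genes called higher and 3484 to 3730 lower. Markers called numbered 2 higher throughout and 3 to 4 lower, the fourth being Snap25 (-1.02 to -0.62) without KE replicate 1. Counts were 3 to 6 lower for neuronal RNA-binding proteins and transcription factors (3 without NT replicate 1), 1 to 2 higher for progenitors and 0 to 1 higher for glutamatergic and GABAergic genes (2 and 1 without KE replicate 1). Dcx ranged from -0.24 to 0.15 and Syp from -0.22 to 0.04.

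With the replicate block, 3967 genes were called higher and 4079 lower, and no marker changed its call. Same-numbered cultures deviated together only weakly (r across genes 0.059 to 0.066, against -0.05 to -0.01 for different numbers), but all 6 correlated best with their own number. The labels do not say whether same-numbered cultures were prepared together. The main fit therefore took no pairs, and whether the numbers form pairs is not known. Depth limits Rbfox3, Snap25, Syt1 and, in NT, Nefl, which rest on at most about 35 reads per culture.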

Other observations

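The genes whose pattern over the 6 cultures was most like the mean of the 9 tested markers, each put on a standardised log2 scale, were Trmt6, Jph1, Bcl10, Umad1 and Zfp706, with Pearson's r of 0.988, 0.984, 0.984, 0.983 and 0.975 over 6 cultures. The mean pattern was -0.02, -0.38 and 0.02 in KE and -0.03, 0.07 and 0.34 in NT, so that the rises and falls of the markers largely cancel in it. The 5 genes had log2FC of -0.14, -0.47, -0.06, -0.18 and -0.15. Likeness over 6 cultures in 2 groups is a description of these cultures.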
